A study of Mus musculus with 6 samples.

Results

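All 39 mouse Hox genes of the 4 clusters were followed in brain tumors made by in utero electroporation, a method that drives DNA constructs into cells of the embryonic brain with an electric pulse. Members were the rows of the count table whose symbol is Hox, a cluster letter from a to d and a paralog number, and they made up 39 of 24537 rows. Per the titles, 3 tumor libraries of CD-1 IGS mice carried PdgfraD482V (a mutant form of the Pdgfra receptor), a dominant-negative p53 (DNp53) and FOXR2, a forkhead transcription factor. The other 3 libraries, titled Control, carried PdgfraD482V and DNp53 without FOXR2, so both constructs were shared by all 6 tumors. The labels do not say which promoter drove the constructs, how old the mice were or whether each tumor came from its own animal. The p-values therefore rest on the spread among these libraries, which may be technical. A second deposited sheet assigns each of the 6 libraries to the group its title does not name. Libraries are therefore named by their titles, as FOXR2 or Control replicate 1 to 3, with values in that order, and every direction turns round if the sheet is right.

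Hox genes encode homeodomain transcription factors that give cells their position along the head-to-tail axis. Within a cluster the order of the genes follows the order of their expression domains: low paralog numbers reach into the hindbrain, and high numbers act in the trunk, limbs and tail. The forebrain and midbrain normally keep the clusters silent through Polycomb complexes, which modify histones, while Trithorax (MLL) complexes oppose them. Hox transcripts in a brain tumor are for that reason read as a sign of hindbrain or more posterior identity or of lost silencing, and transcript counts alone cannot tell these apart.

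Total counts ran from 13429489 to 17927025 per library. Detection was set at 3 counts, equal to 0.174 to 0.219 CPM (read counts scaled to a common library size with TMM, a normalization factor per library). Floors cover counting error only. Foxr2 itself had 22, 1 and 7 counts in the FOXR2 tumors against 4, 10 and 7 in the Control tumors. The species of the FOXR2 construct is not stated in the labels, so counts on the mouse gene do not check them. Markers of oligodendrocyte precursors, of which Pdgfra is one and was also supplied, were high in all libraries. They summed to 8856, 6185 and 8248 CPM in the FOXR2 libraries against 5667, 5079 and 5017 in the Control libraries, so the groups did not overlap. FOXR2 replicate 2 stood apart in markers of other cells. Its 10 microglia and macrophage markers summed to 1177 CPM against 3.72 to 13.4 in the other 5 libraries, and its 9 fibroblast and meningeal markers to 65.6 CPM against 3.30 to 39.5. In bulk tissue, fewer cells with a transcript and less transcript per cell cannot be told apart.

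Hox expression in these tumors came almost entirely from the HoxA cluster. The 11 HoxA genes together had 667, 47 and 598 counts in the FOXR2 tumors against 36, 97 and 8 in the Control tumors. FOXR2 replicates 1 and 3 were therefore high, Control replicate 2 came next, and FOXR2 replicate 2 lay among the Control libraries. On the CPM scale these sums were 43.5, 2.97 and 43.6 against 2.16, 5.78 and 0.465. The 10 HoxB genes had 4, 14 and 0 counts in the FOXR2 libraries and 2, 3 and 1 in the Control libraries. The 9 HoxC genes had 14, 5 and 3 against 0, 1 and 2, and the 9 HoxD genes 9, 3 and 3 against 0, 5 and 0. No single gene of HoxB, HoxC or HoxD passed 6 counts in any library, so their joint level of at most 1.76 CPM rests on scattered reads. The 14 HoxB counts of FOXR2 replicate 2 were spread over 6 genes at 2 or 3 counts each, in the library with the microglial and fibroblast markers, and their part in these counts was not tested.

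**Figure D1:**
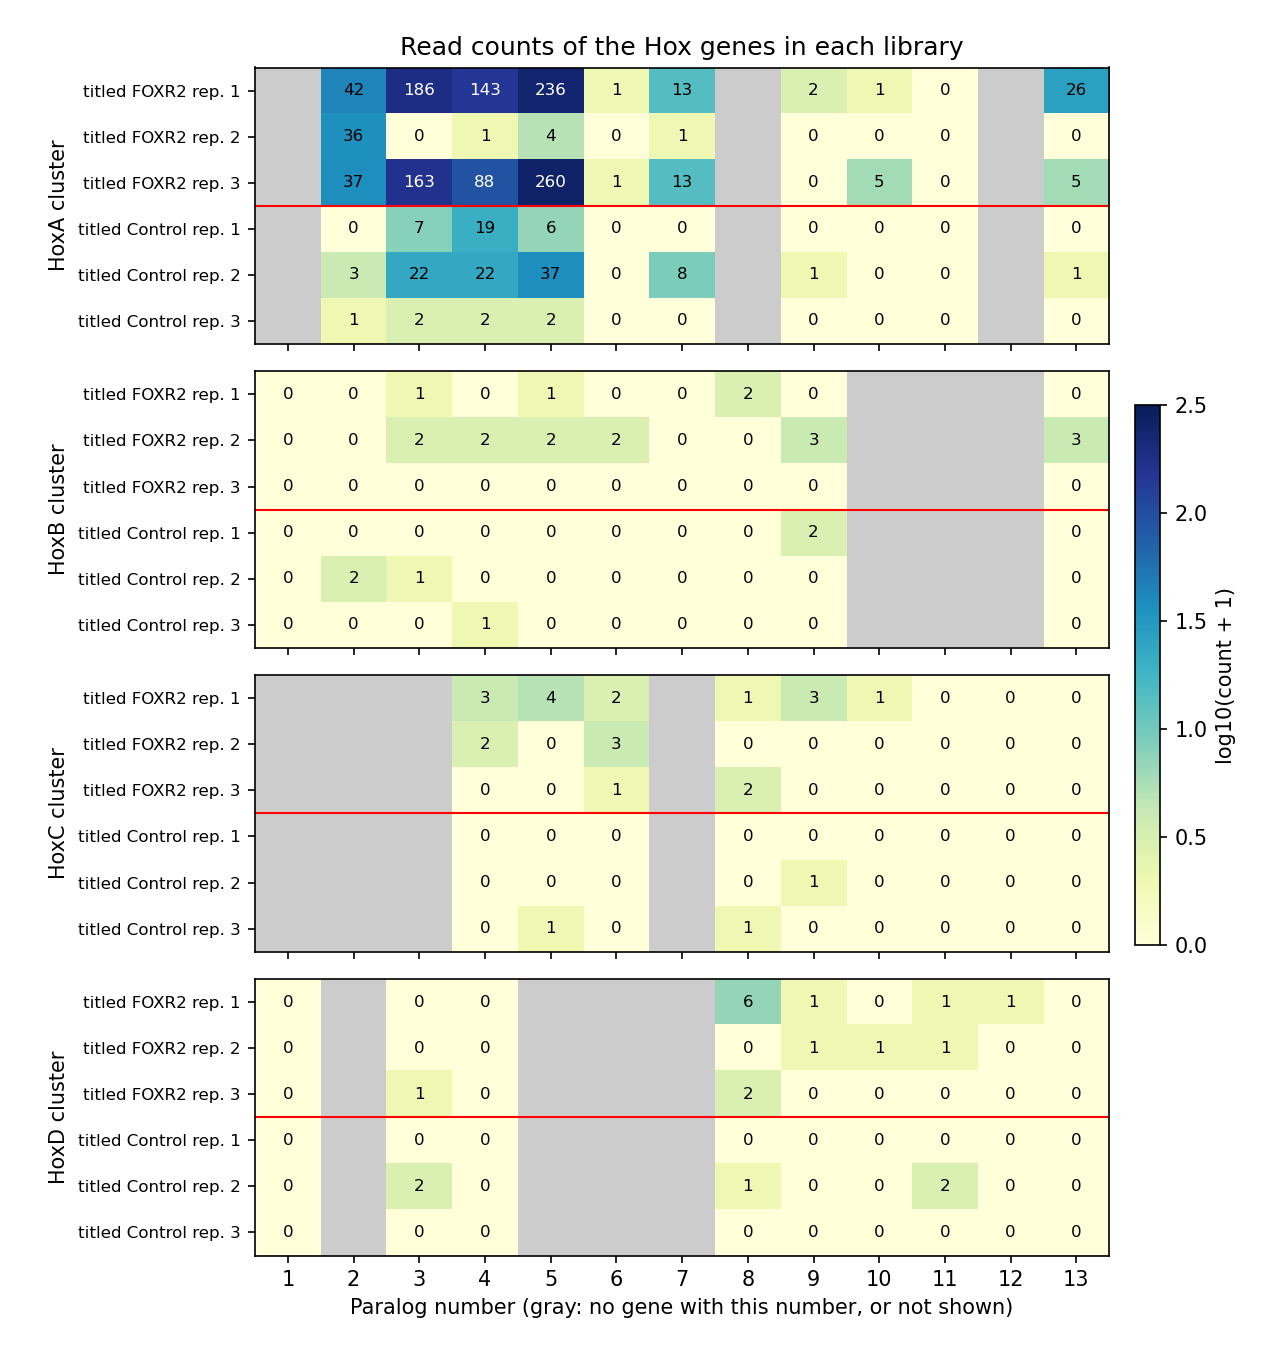
Read counts of the Hox genes shown (columns, by paralog number) in each library (rows; those titled FOXR2 above the red line, those titled Control below) in the 4 clusters, with color on a log10(count + 1) scale. Counts gather in HoxA paralogs 2 to 5 of FOXR2 replicates 1 and 3, while HoxB, HoxC and HoxD reach at most 6 counts.

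HoxA made up 667 of the 694 Hox counts of FOXR2 replicate 1, or 96.1% (95% Clopper-Pearson interval 94.4 to 97.4%). In FOXR2 replicate 3 it was 598 of 604, or 99.0% (97.9 to 99.6%). FOXR2 replicate 2 had the lowest share, 47 of 69 or 68.1% (55.8 to 78.8%). The Control libraries gave 36 of 38, 97 of 106 and 8 of 11 counts. Across the 39 members, 9 had no count in any library (Hoxa11, Hoxb1, Hoxb7, Hoxc11, Hoxc12, Hoxc13, Hoxd1, Hoxd4 and Hoxd13), and 15 reached 3 counts in at least 1 library, 8 of them in HoxA. A count of 0 allows up to 3 counts, so these genes were not detectable at this depth, which does not show that they were silent in every cell.

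Within HoxA the counts gathered at low paralog numbers. Paralogs 1 to 5 held 624 of 667 counts in FOXR2 replicate 1, 46 of 47 in FOXR2 replicate 2 and 574 of 598 in FOXR2 replicate 3. In the Control libraries they held 36 of 36, 87 of 97 and 8 of 8. The 6 genes from Hoxa6 to Hoxa13 summed to 43, 1 and 24 counts in the FOXR2 libraries and 0, 10 and 0 in the Control libraries. The anterior genes of this cluster pattern the hindbrain, and the posterior ones pattern the trunk, limbs and genital tract.

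Hoxa2, which specifies hindbrain segment identity and the neural crest of the second pharyngeal arch, was the member whose groups stood furthest apart. It had 42, 36 and 37 counts in the FOXR2 tumors against 0, 3 and 1 in the Control tumors. All FOXR2 libraries were high, including replicate 2, and the groups did not overlap. Means were 2.57 ± 0.256 against 0.0790 ± 0.0912 CPM (SD, n = 3 each). The log2 fold change was 4.89 ± 0.82 (standard error; edgeR quasi-likelihood test, Benjamini-Hochberg adjusted p = 0.0437). The Control mean rests on 4 counts in all, with each library at or below the floor, so the size of the fold is uncertain. Leaving out any single library ended the call, with log2 fold changes of 4.35 to 6.12 and edgeR adjusted p of 0.0504 to 0.145.

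Hoxa3, Hoxa4 and Hoxa5 were the most abundant members, but in fewer libraries. Hoxa3, which acts in the caudal hindbrain and the third pharyngeal arch, had 186, 0 and 163 counts in the FOXR2 tumors against 7, 22 and 2 in the Control tumors. Hoxa4, a gene of the hindbrain to spinal cord transition, had 143, 1 and 88 against 19, 22 and 2. Hoxa5, a gene of the cervical region that also acts in lung development, had 236, 4 and 260 against 6, 37 and 2. In each of the 3 genes FOXR2 replicates 1 and 3 exceeded every Control library and FOXR2 replicate 2 lay below Control replicate 1, so the groups overlapped.

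Their means were 8.01 ± 6.94 against 0.616 ± 0.621 CPM for Hoxa3, 5.27 ± 4.74 against 0.856 ± 0.646 for Hoxa4 and 11.5 ± 9.94 against 0.894 ± 1.14 for Hoxa5 (SD, n = 3 each). The spread in the FOXR2 group was almost as large as its mean. The log2 fold changes were 3.69 ± 1.59, 2.61 ± 1.36 and 3.68 ± 1.47, and none passed the edgeR test over all genes (adjusted p = 0.205, 0.279 and 0.181). Without FOXR2 replicate 2 the values were 4.27 ± 0.82, 3.19 ± 0.82 and 4.25 ± 0.98, still short of the threshold (edgeR adjusted p = 0.0535, 0.0916 and 0.0752). FOXR2 replicate 2 thus combined 36 counts of Hoxa2 with 5 counts over Hoxa3, Hoxa4 and Hoxa5 together, where FOXR2 replicates 1 and 3 had 565 and 511.

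Of the 39 members, these 4 genes passed the filter on low counts (filterByExpr with a minimum count of 10). Hoxa2 was called higher and 0 were called lower; across all 13101 tested genes edgeR called 0.908% higher and 1.38% lower. The groups did not overlap in 1 of the 4, against 30.3% of all tested genes. A second count model, DESeq2, called Hoxa2 and Hoxa5 higher (adjusted p = 6.23e-05 and 0.0217), where it called 6.91% of all genes higher. A gene high in 1 group passes such a filter through that group, so these counts say nothing of the 35 members that did not pass.

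The sexes of the animals, read from Xist and 4 Y-linked genes, also separated the libraries. FOXR2 replicates 1 and 3 and Control replicate 1 had 1280 to 2545 Y-linked counts, and the other 3 libraries 0 to 3. Both libraries with high Hoxa3 to Hoxa5 thus carried Y-linked transcripts, and so did Control replicate 1, whose HoxA sum was 2.16 CPM. With sex as a covariate the log2 fold change of Hoxa2 was 5.08 ± 0.94 (edgeR adjusted p = 0.120), and those of Hoxa3, Hoxa4 and Hoxa5 were 1.30 ± 3.15, 0.50 ± 1.99 and 1.87 ± 2.88. The part of sex in the levels was not tested beyond this fit.

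Markers of other cell types that can express HoxA genes or that moved with the titles were summed per library. The 9 fibroblast and meningeal markers, genes of connective tissue, summed to 9.66, 65.6 and 39.5 CPM in the FOXR2 libraries against 3.30, 7.09 and 5.05 in the Control libraries, higher in every FOXR2 library than in any Control library. Of these markers the collagen genes Col1a2 and Col3a1 had 0 and 2 counts in FOXR2 replicate 1, 201 and 195 in replicate 2 and 0 and 0 in replicate 3. Col1a1 had 9, 191 and 16 counts in the FOXR2 libraries against 4, 4 and 8 in the Control libraries. Postn had 27, 297 and 457 against 14, 3 and 30, and gave 33.3 of the 39.5 CPM of FOXR2 replicate 3. DESeq2 called Col1a1 and Postn higher (adjusted p = 0.00760 and 0.000190), and edgeR called 0 of the 3 tested. The 5 muscle markers stayed at 0.511 to 1.20 CPM and the 8 endothelial and pericyte markers at 2.34 to 6.20 CPM in all libraries. The 9 lymphocyte and blood progenitor markers, mostly Kit, summed to 76.9, 50.7 and 117 against 44.6, 23.0 and 13.9 CPM. The 7 neuronal markers were at 445 to 470 CPM in the FOXR2 libraries and 87.7 to 139 in the Control libraries, with Syt1 and Syn1, of synaptic vesicles, called higher (edgeR adjusted p = 0.0436 and 0.0489). The 5 astrocyte markers summed to 393 to 570 against 226 to 394 CPM, but went both ways, with 3 of 5 fitted above 0. The glutamate transporter Slc1a2 was called higher (edgeR adjusted p = 0.0379), while DESeq2 called Slc1a2 higher and Aldh1l1 lower. The lowest fitted log2 fold change of the 5 was -1.71. The edgeR calls of Syt1, Syn1 and Slc1a2 were lost with the replicate number as a block, where 0 of all genes were called. These 3 calls were not followed one by one under the other edgeR settings. The 6 markers of mature oligodendrocytes ranged from 186 to 4799 against 236 to 3388 CPM. The part of these cells in the Hox levels was not tested.

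**Figure D2:**
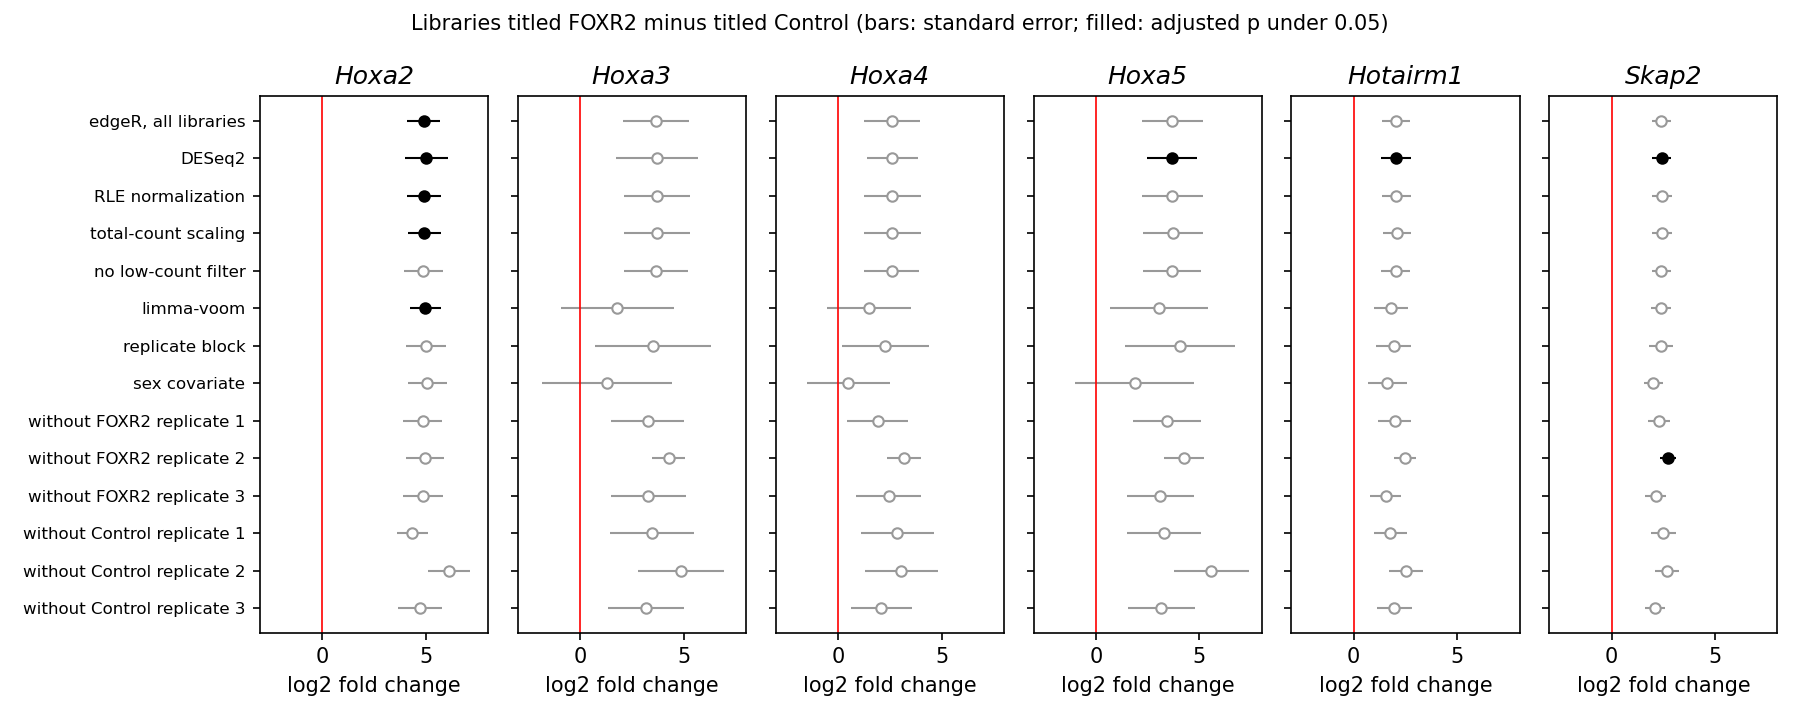
Log2 fold change (x axis; libraries titled FOXR2 minus titled Control, with its standard error as a bar) of the tested HoxA genes, the noncoding RNA gene Hotairm1 and the flanking gene Skap2 under each setting (rows). Hoxa2 lies between 4.35 and 6.12 in every alternative, while the standard errors of Hoxa3, Hoxa4 and Hoxa5 are 1.59, 1.36 and 1.47 with all libraries and 0.82, 0.82 and 0.98 without FOXR2 replicate 2.

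Levels of different genes were compared per kilobase of their longest annotated transcript in GENCODE M21. In FOXR2 replicate 1 the order was Hoxa5 at 8.20, Hoxa4 at 5.85, Hoxa3 at 4.68 and Hoxa2 at 1.54 CPM per kb. FOXR2 replicate 3 gave 10.1 for Hoxa5, 4.59 for Hoxa3, 4.03 for Hoxa4 and 1.52 for Hoxa2, so Hoxa3 and Hoxa4 changed places and their order is within the spread of these libraries. Control replicate 2 had the same leading gene at a lower level, with Hoxa5 at 1.17, Hoxa4 at 0.823, Hoxa3 at 0.506 and Hoxa2 at 0.101 CPM per kb. In Control replicate 1 Hoxa4 led at 0.715, followed by Hoxa5 at 0.192 and Hoxa3 at 0.162, with Hoxa2 at 0. In FOXR2 replicate 2 Hoxa2 was first at 1.28 CPM per kb, ahead of Hoxa5 at 0.135, Hoxa4 at 0.040 and Hoxa3 at 0, which rest on 4, 1 and 0 counts. Which transcript is used in these tumors is not known, so these levels depend on the chosen lengths.

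Hoxa7, a thoracic gene, had 13, 1 and 13 counts in the FOXR2 tumors against 0, 8 and 0 in the Control tumors, which again placed Control replicate 2 between FOXR2 replicates 1 and 3 and the rest. Hoxa13, the most posterior gene of the cluster, which patterns digits and the genital tract, had 26, 0 and 5 against 0, 1 and 0. FOXR2 replicate 1 was the library with a Hoxa13 signal well above the floor, and its next lower neighbors Hoxa11, Hoxa10 and Hoxa9 had 0, 1 and 2 counts there. Hoxa6, between Hoxa5 and Hoxa7, stayed at 0 or 1 count in every library, and Hoxa9, Hoxa10 and Hoxa11 reached at most 5.

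The paralogs of the abundant genes in other clusters stayed near 0. Hoxb2, the other paralog of Hoxa2, had 0 counts in the FOXR2 libraries and 0, 2 and 0 in Control replicates 1, 2 and 3. The other paralogs of group 3, Hoxb3 and Hoxd3, summed to 1, 2 and 1 counts in the FOXR2 libraries and 0, 3 and 0 in the Control libraries. Those of group 4 (Hoxb4, Hoxc4 and Hoxd4) summed to 3, 4 and 0 against 0, 0 and 1, and those of group 5 (Hoxb5 and Hoxc5) to 5, 2 and 0 against 0, 0 and 1. Outside HoxA the highest count of any member was the 6 of Hoxd8 in FOXR2 replicate 1.

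Several noncoding RNA genes of the HoxA cluster had the same libraries on top. Hotairm1, which lies beside Hoxa2 on the opposite strand, had 93, 26 and 120 counts in the FOXR2 tumors against 13, 34 and 20 in the Control tumors. Control replicate 2 exceeded FOXR2 replicate 2, so the groups overlapped, and the log2 fold change of 2.05 ± 0.69 did not pass the edgeR test (adjusted p = 0.131; DESeq2 adjusted p = 0.0370). Hoxaas2, antisense to Hoxa3, had 15, 1 and 13 against 1, 2 and 2 counts. Mira, placed by RefSeq between Hoxa6 and Hoxa7, had 11, 1 and 20 against 1, 5 and 1. Of 19 noncoding RNA genes listed for the 4 clusters 15 were in the table, Hotairm1 alone was tested, and Hotair of HoxC, Mir10a, Mir10b and Mir196b had no count, although a poly(A) library is not made to capture short RNAs.

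The counting rule for overlapping genes is not given in the sources used here. In GENCODE M21 exons of Hoxa3 overlap Hoxaas2 and Hoxaas3, on opposite strands, so reads of these pairs cannot be told apart unless strand was used. RefSeq places Hoxa4, Hoxa5 and Hoxa6 inside the span of the long Hoxa3 transcript, and part of the Hoxa3 count is uncertain for that reason. Hoxa2 shared exons with no other listed gene. Same-strand exon overlap joined Hoxd3 with Hoxd4 and Hoxc5 with Hoxc10, all near 0.

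**Figure D3:**
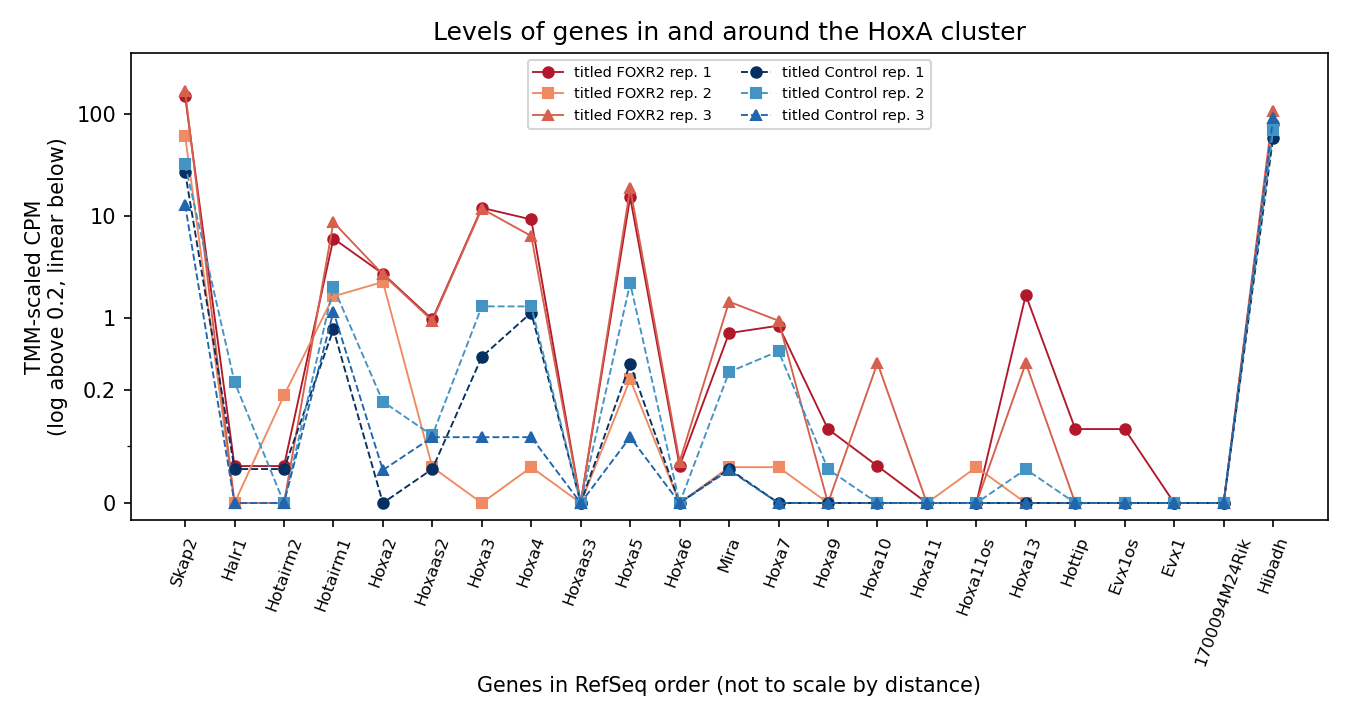
TMM-scaled CPM (y axis, logarithmic above 0.2 and linear below) of genes of the HoxA region in RefSeq order (x axis, not to scale), one line per library, solid for those titled FOXR2 and dashed for those titled Control. FOXR2 replicates 1 and 3 lie above all Control libraries at Hoxa2, Hoxa3, Hoxa4 and Hoxa5, FOXR2 replicate 2 is beside them at Hoxa2 and below Control replicate 1 at the other three, and the flanking genes Skap2 and Hibadh are well expressed in every library.

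At the anterior end of the cluster, opposite to Hoxa13, the nearest protein-coding gene is Skap2, a signaling adaptor. It had 2330, 981 and 2346 counts in the FOXR2 tumors against 457, 544 and 224 in the Control tumors. The groups did not overlap, with replicate 2 the lowest FOXR2 library as in HoxA, and the log2 fold change of 2.40 ± 0.48 fell just short of the edgeR threshold (adjusted p = 0.0512; DESeq2 adjusted p = 2.52e-05). Without FOXR2 replicate 2 it passed, at 2.73 ± 0.38 (edgeR adjusted p = 0.0437). At the Hoxa13 end Evx1, a homeobox gene, had 0 counts everywhere, and the next coding gene Hibadh, a valine catabolism enzyme, stood at 87.0 ± 19.6 against 73.9 ± 16.9 CPM (edgeR adjusted p = 0.587). Of 24 listed neighbors of the 4 clusters 12 were tested, 9 were fitted above 0 and Smug1, a DNA repair gene beside HoxC, was called lower (12.8 ± 1.81 against 28.5 ± 1.14 CPM, SD over 3 libraries each; adjusted p in edgeR = 0.0474, and 0.0735 to 0.175 without each library in turn). Its call was also lost with RLE factors (edgeR adjusted p = 0.0503), total-count scaling (0.0530), no filter (0.0581) and the sex covariate (0.122). The HoxC genes themselves stayed near 0 in both groups.

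Start regions of 3 members are shown because these genes differed in which libraries held them: Hoxa2 had 36 to 42 counts in all FOXR2 libraries, while Hoxa3 and Hoxa5 had 163 to 260 in replicates 1 and 3 and 0 and 4 in replicate 2. Each is the 250 bases before the RefSeq start, from GRCm38.p6, printed 5′ to 3′ along the minus strand, with CpG dinucleotides in capitals. The Hoxa2 region is chr6:52164832-52165081 with 6 CpG, the Hoxa3 region chr6:52213068-52213317 with 18 and the Hoxa5 region chr6:52204588-52204837 with 28. The Hoxa3 start is that of its long transcript. The starts used in these tumors were not measured.
Hoxa2: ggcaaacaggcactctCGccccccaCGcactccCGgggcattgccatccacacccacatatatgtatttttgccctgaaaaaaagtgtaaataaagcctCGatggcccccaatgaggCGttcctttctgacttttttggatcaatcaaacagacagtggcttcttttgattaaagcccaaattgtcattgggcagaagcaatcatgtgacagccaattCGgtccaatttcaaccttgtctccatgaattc
Hoxa3: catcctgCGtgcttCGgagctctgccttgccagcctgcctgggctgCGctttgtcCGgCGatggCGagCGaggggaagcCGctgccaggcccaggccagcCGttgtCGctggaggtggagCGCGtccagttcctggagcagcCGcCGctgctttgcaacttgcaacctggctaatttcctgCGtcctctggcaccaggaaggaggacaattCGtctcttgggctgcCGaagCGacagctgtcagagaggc
Hoxa5: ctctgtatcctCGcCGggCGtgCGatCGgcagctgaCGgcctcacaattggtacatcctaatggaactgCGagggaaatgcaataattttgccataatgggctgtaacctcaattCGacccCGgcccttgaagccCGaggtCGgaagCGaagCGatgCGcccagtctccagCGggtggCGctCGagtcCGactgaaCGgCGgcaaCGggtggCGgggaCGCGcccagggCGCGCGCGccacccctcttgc

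Promoter windows of 300 bases (250 before to 50 after the start) were held by the RefSeq table for 22 of the 39 members, as 24 windows. Their median CpG number was 14.5 against 7 over all 32851 windows, with a median GC content of 57.7% against 52.7%. CpG-rich starts are the usual targets of Polycomb complexes. The medians were 17.5 for the 10 HoxA windows, 20 for the 10 HoxD windows and 13 for the 3 HoxB windows, and the 1 HoxC window had 9. AGGTCA, the half-site of retinoic acid receptors (searched on both strands, with TGACCT), was in 7 of 24 Hox windows (29.2%) and in 16.3% of all windows; it was in 1 of the 10 HoxA windows, that of Hoxa5, and in 4 of the 10 HoxD windows. TAAT, the core of homeodomain sites (with ATTA), was in 19 of 24 (79.2%) and in 58.0% of all. A window was counted once for each motif, TAAT and ATTA may overlap each other, and a match is not a measured site.

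Hox proteins bind DNA with cofactors of the Pbx, Meis and Pknox families, all of which were expressed. Of the 9 cofactor genes tested 5 had a fitted value above 0, and the median was 0.022 on the log2 scale, against 0.011 over all genes. Pbx3 was called lower, with 234, 284 and 204 counts in the FOXR2 tumors against 672, 531 and 667 in the Control tumors. The groups did not overlap, at 16.0 ± 1.68 against 36.9 ± 4.61 CPM (SD, n = 3 each; log2 fold change -1.20 ± 0.21, edgeR adjusted p = 0.0437; 0.0515 to 0.158, and so no call, without each library in turn, and 0.122 with the sex covariate). The other 8 cofactors had fitted values of -0.32 to 0.75.

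Among 24 listed upstream regulators and retinoic acid genes 14 were tested and 8 were fitted above 0, with a median of 0.23. Of the tested genes 7 had an unadjusted edgeR p under 0.05, against 24.9% of all tested genes. The retinoic acid gene Aldh1a3 had 57, 214 and 11 counts in the FOXR2 tumors against 927, 1581 and 1301 in the Control tumors. The groups did not overlap (log2 fold change -3.63 ± 0.85, edgeR adjusted p = 0.0666, DESeq2 adjusted p = 4.19e-05). DESeq2 also called Rxra higher (adjusted p = 0.0328). Their part in the Hox levels was not tested. Genes that switch Hox clusters on in the tail bud were at or near 0, with Cdx1 and Cdx4 at 0 and Cdx2 at 2 counts in FOXR2 replicate 2.

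Genes of several brain regions were present beside the HoxA genes. Of 24 forebrain genes 7 were tested, 4 were fitted above 0 with a median of 0.20, and edgeR called 0. In this list 1 had an unadjusted edgeR p under 0.05 and DESeq2 called 3, against 24.9% and 13.8% of all tested genes. Bcl11b, a neuronal zinc finger gene, had the smallest p (log2 fold change 1.39 ± 0.34, edgeR adjusted p = 0.0720), followed by Gsx1 (0.71 ± 0.38, adjusted p = 0.290) and Otx1 (1.04 ± 0.82, adjusted p = 0.473). Of 21 midbrain and hindbrain genes 8 were tested, and all 8 were fitted above 0 with a median of 0.86. Over all tested genes 6648 of 13101 were above 0. In the midbrain and hindbrain list 3 had an unadjusted edgeR p under 0.05 and DESeq2 called 2, beside the same shares of 24.9% and 13.8%. The groups overlapped in En1, En2, Gbx2, Irx1, Irx3, Irx5 and Egr2, with edgeR adjusted p of 0.181 to 0.798. The fitted signs are therefore no measure of a shift between regions.

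Silencing was examined through the Polycomb and Trithorax genes and through other developmental regulators that the brain normally keeps silent. Of 33 Polycomb genes, all tested, 20 were fitted above 0 with a median of 0.047, and edgeR called 0. Of these genes 4 had an unadjusted edgeR p under 0.05 and DESeq2 called Cbx6 and Phc3. The shares over all tested genes were 24.9% at an unadjusted edgeR p under 0.05 and 13.8% called by DESeq2. Phc3 stood at 63.5 ± 8.22 against 34.4 ± 6.55 CPM, Cbx6 at 122 ± 34.9 against 65.6 ± 5.04 and Rybp at 63.9 ± 11.4 against 40.7 ± 4.81 (SD over 3 libraries each; adjusted p in edgeR = 0.0685, 0.0808 and 0.113). Of 18 tested Trithorax and opposing enzymes 12 were fitted above 0 with a median of 0.064, and edgeR called 0, with 4 at an unadjusted p under 0.05 and 0 by DESeq2. Kmt2c, Psip1 and Wdr5 had the smallest p (edgeR adjusted p = 0.145, 0.172 and 0.181). No histone mark was measured here, so these transcript levels say nothing on silencing itself.

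The 40 other developmental regulators included 6 with no count in any library and 24 that reached 3 counts in at least 1. Of the 9 tested all were fitted above 0, with a median of 1.52, where 6648 of all 13101 tested genes were above 0. A gene high in 1 group passes the low-count filter through that group, so this says nothing of the members not tested. Foxf1, a forkhead factor of lung and gut mesenchyme, was called higher. It had 479, 108 and 630 counts in the FOXR2 tumors against 4, 6 and 14 in the Control tumors, with replicate 2 again the lowest of the FOXR2 libraries (log2 fold change 5.87 ± 0.85, edgeR adjusted p = 0.0388). Its call held without FOXR2 replicate 2 (edgeR adjusted p = 0.0198) and was lost without any 1 of the other 5 libraries (up to 0.159), with the sex covariate (0.120) and with limma-voom (0.101). The number of these regulators with at least 3 counts was 20, 16 and 18 in the FOXR2 libraries and 14, 14 and 12 in the Control libraries. Among Hox genes the same numbers were 11, 6 and 8 against 4, 6 and 0. The same numbers were not counted over all genes, so these differences are not shown to be particular to either list.

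**Figure D4:**
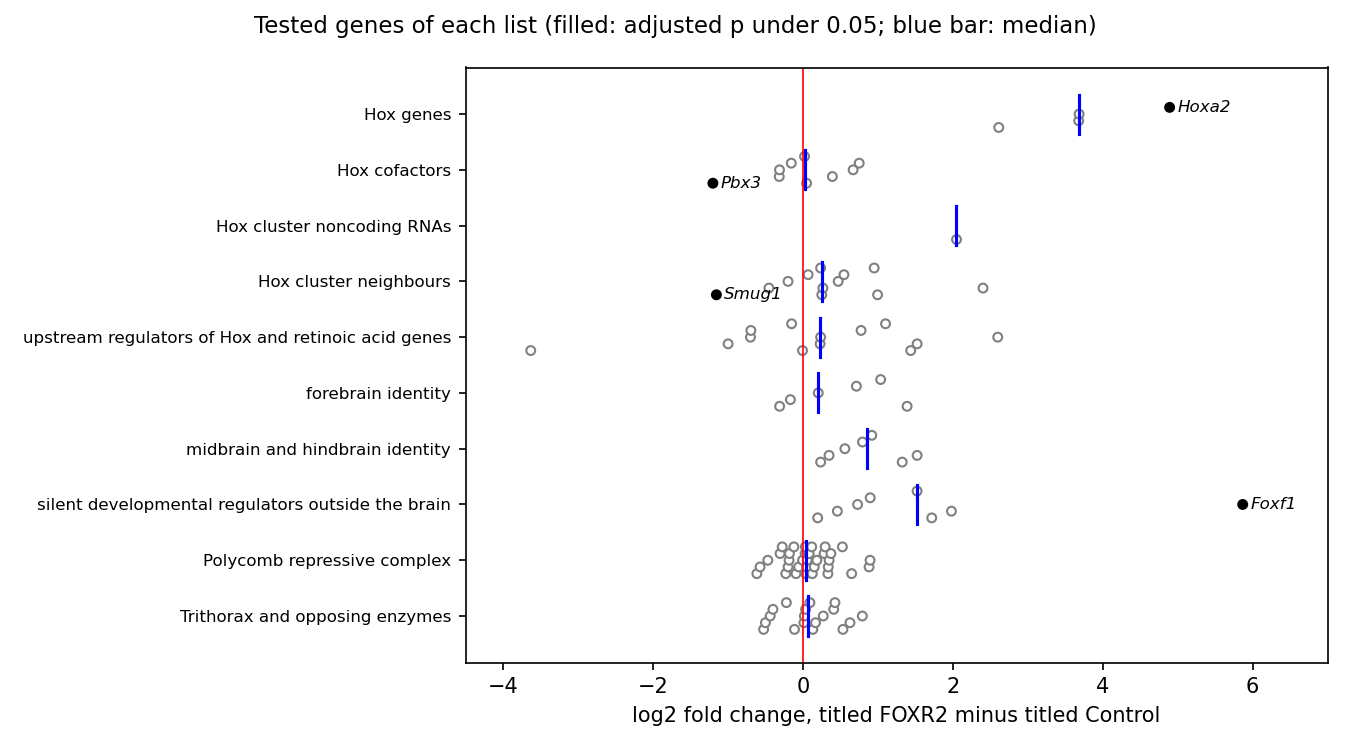
Log2 fold changes (x axis; libraries titled FOXR2 minus titled Control) of tested genes in each list (rows), filled where edgeR's adjusted p was under 0.05, with the median over all tested genes of the list as a blue bar. The tested Hox genes, 4 of 39, lie between 2.61 and 4.89. Cofactor, Polycomb and Trithorax genes lie around 0 with medians of 0.022, 0.047 and 0.064. A rare transcript that is high in either group alone passes the low-count filter through that group. The place of the tested Hox genes therefore cannot be set against these lists as a difference between gene families.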

How the data were processed

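Per the labels' protocols, poly(A) RNA of 6 tumors went into directional libraries sequenced from 1 end over 51 bases. The authors deposited whole-number read counts per gene symbol, which were used as deposited. TopHat, DESeq2 and hg19, a human build, are named in the submitters' processing notes, and no source used here names the counting tool or the annotation. Groups came from the sample titles, while a deposited sheet of group words (other, not a measurement) says the opposite.

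Counts were fitted in R 4.3.3 with edgeR 4.0.16 (filterByExpr with a minimum count of 10, TMM, quasi-likelihood F test, no covariate, Benjamini-Hochberg over 13101 genes, threshold 0.05, prior count 0.125 for log2 fold changes). The fit was run on simulated counts that held neither an outlying library nor a sex difference. That run therefore does not check how far the calls depend on these. Alternatives were DESeq2 1.42.0, limma-voom (limma 3.58.1), RLE factors, total-count scaling, no filter, the replicate number as a block, animal sex as a covariate, and each library left out in turn. Transcript lengths and exon overlaps came from GENCODE M21 by symbol for all 39 members, gene order and promoters from RefSeq on GRCm38.p6.

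Members and gene lists were chosen with earlier results of these data known. The rule named members that passed the filter or had 3 counts in every library of a group, and from each list (marker lists as sums) the called genes or else the 3 smallest p. Hoxa7, Hoxa13, Mira, Hoxaas2, Skap2, Hibadh, Evx1, the Cdx genes and the RNA genes at 0 were named after their values were seen. Aldh1a3, Rxra and the midbrain and hindbrain genes were named in the same way. Some genes, members of the lists among them, are not reported here.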

Additional observations from a re-analysis of the deposited data

How the results depend on the processing

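Hoxa2 was higher in the libraries titled FOXR2 in all 13 alternatives (log2 fold change 4.35 to 6.12) and was called in 4 of them. The number of Hox genes called was 1 with RLE factors, total-count scaling or limma-voom and 2 with DESeq2 (Hoxa2 and Hoxa5). It was 0 with no low-count filter (6 of 30 at an unadjusted p under 0.05), 0 with the replicate block and 0 with the sex covariate (1 of 4 each), and 0 to 0 without each replicate in turn (1 to 5 members at an unadjusted p under 0.05). The shares of all genes at an unadjusted edgeR p under 0.05 were 20.1% with no filter and 20.2% with the replicate block. They were 18.3% with the sex covariate and 16.7 to 24.6% without each replicate in turn. Hoxa3, Hoxa4 and Hoxa5 kept their direction in all 13 alternatives each, with log2 fold changes of 1.30 to 4.87, 0.50 to 3.19 and 1.87 to 5.57. Over all genes 300 were called by edgeR, 1894 by DESeq2, 7 with the sex covariate (2398 at an unadjusted p under 0.05), 0 with the replicate block (2652) and 1 to 205 without each replicate in turn; the cause was not tested, beyond the fewer libraries in the last. Deviations of same-numbered libraries from their group means correlated at -0.016, -0.24 and -0.010, so they gave no positive sign of pairing by number. With so few libraries these values cannot tell whether a number stands for a shared litter or batch. The 35 members under the filter are limited by depth: with a floor of 1 count 5 to 23 Hox genes were detected in a library, and with 10 counts 0 to 7.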

Other observations

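Some homeobox and T-box genes outside the clusters, chosen here after their values were seen, also had FOXR2 replicates 1 and 3 on top and FOXR2 replicate 2 low. Irx2, a homeobox gene of the Iroquois family, had 183, 6 and 139 counts in the FOXR2 tumors (replicates 1 to 3) against 1, 2 and 1 in the Control tumors. Barx1, a homeobox gene of stomach and tooth mesenchyme, had 65, 0 and 55 against 1, 4 and 4. Tbx15, a T-box gene of limb and skin mesenchyme, had 42, 5 and 121 against 7, 1 and 0. Six3, a homeobox gene of the anterior forebrain, had another order, 592, 182 and 6 against 1, 4 and 1, with FOXR2 replicate 3 near the Control libraries. DESeq2 called these 4 genes higher (adjusted p = 8.63e-06, 0.0420, 0.00822 and 6.05e-07), and none of the 4 passed the filter for the edgeR test.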
